A study of Homo sapiens with 54 samples.

Results

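LN319 is a human glioma cell line in which the study examined dependence on *TRA2A*, and the comparison described here set LN319 cells with a *TRA2A* knockout (*TRA2A* KO) against LN319 cells with a control knockout (Control KO). All genes with at least 1 TPM (reads scaled for transcript length and then to a fixed total per library) in at least 4 of the 15 LN319 libraries were members, which gave 19303 of the 55906 gene names listed for the line. At the edge of that limit, *SDHDP6* was inside with a fourth-highest value of 1.0004 TPM and RP11-44N12.5 was outside with 0.999874 TPM. Both groups had 3 replicate libraries of cells that overexpress luciferase (Luc), a control transgene, and both received Cas9 and a guide RNA on 1 lentiviral vector and were collected 1 week later. The locus that the Control KO guide targeted in these libraries is not given in the sources used here. Cas9, the vector and the transgene were shared and the targeted gene differed. Another 3 groups of 3 libraries served as comparisons. They were Luc cells with a *TRA2B* knockout (*TRA2B* KO), and cells that overexpress *TRA2B* (TRA2B-OE) with a Control KO or a *TRA2A* KO. The cells were transduced populations rather than single clones, and nothing in the labels says that replicates were separate transductions, so the p-values measure the spread between these libraries, which may be technical.

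*TRA2A* and *TRA2B* are paralogous splicing factors of the serine/arginine-rich (SR) type that bind GA-rich sequences in exons and promote the inclusion of those exons. Each carries a poison exon, a stretch that leads to mRNA decay when it is included, through which the paralogs limit their own amount. The mRNA levels described here sum over all transcripts of a gene and do not show the inclusion of single exons.

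The 3 *TRA2A* guides that the study lists for knockout with SpCas9 are shown because they fix where the gene was cut. The guide used in these libraries is not given in the sources used here. Each is written 5′ to 3′ in lower case with the adjacent PAM, the motif Cas9 needs, in capitals.
TRA2A sg4 (chr7:23513023-23513042, minus strand): tcagtttgtacacaacagagAGG
TRA2A sg5 (chr7:23512982-23513001, minus strand): tctcgatatggaccattgagTGG
TRA2A sg6 (chr7:23512951-23512970, minus strand): tggtttatgatcagcgaactGGG

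*TRA2A* is on the minus strand of chromosome 7, at 23504780 to 23531981 in GRCh38. Each guide matched chromosome 7 at 1 place, and each cut site lay in the coding part of exon 4 of the 8 exons of the Ensembl canonical transcript. A break there leaves the promoter in place.

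The 15 columns summed to between 959783 and 964610 TPM, and scaling factors lay between 0.905 and 1.07. TPM keeps no read depth, so no counting error can be given. Of the glial and glioma markers, *VIM* (2866 to 3412 TPM in the 6 libraries compared), *CD44* (2053 to 2297), *SOX2* (375 to 422 in Control KO and 320 to 357 in *TRA2A* KO) and *PDGFRA* (168 to 196 and 126 to 139) were high, while *GFAP* was at 0.62 to 2.80 TPM and OLIG2, SLC1A3, S100B and ALDH1L1 were under 1 TPM. *SOX2* (-0.20, adjusted p = 0.0404) and *PDGFRA* (-0.39, adjusted p = 0.00287) fell and no marker of this list rose. The epithelial genes *CDH1* (116 to 131 TPM), *KRT8* (109 to 128) and *KRT18* (90.6 to 103) were also present. They made up most of the summed level of the 6 epithelial markers, which also include EPCAM, KRT5 and KRT7. That sum was 353 to 363 TPM in Control KO and 338 to 351 TPM in *TRA2A* KO. The defining markers CD3E and PTPRC (blood), CDH5 and VWF (endothelium) and SYT1 and MAP2 (neurons) were at 0 to 0.38 TPM. Of the other markers of these lists, *HBB* was at 5.98 to 10.3 TPM, *CD14* at 1.20 to 3.08 TPM, and RBFOX3, PECAM1 and *KDR* were between 0.22 and 1.23 TPM. *SNAP25*, of neurons, was at 3.61 to 5.24 TPM in Control KO and 2.77 to 3.35 TPM in *TRA2A* KO and did not pass the test, while *CD68*, of blood, rose from 24.5 to 26.7 TPM in Control KO to 40.3 to 44.8 TPM in *TRA2A* KO. Of 6 fibroblast markers LUM was at or near 0, and the 3 that passed the TPM limit, *THY1*, *COL1A1* and *COL1A2*, fell. The summed level of that list was 365 to 376 TPM in Control KO and 216 to 263 TPM in *TRA2A* KO. Mitochondrially encoded RNA made up 12.1% to 12.8% of the TPM in Control KO and 13.2% to 15.03% in *TRA2A* KO. The part of these shifts in the results was not tested.

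*TRA2A* mRNA was at 101, 107 and 113 TPM in the Control KO libraries and at 33.9, 34.3 and 38.3 TPM in the *TRA2A* KO libraries. No library of one group reached those of the other, and the mean was 33.2% of control (log2 fold change -1.55, SE 0.0809, adjusted p = 1.61e-06 by limma's moderated test, adjusted by Benjamini-Hochberg over all 19303 genes as everywhere here; SE is the standard error). The exact permutation test of the 6 values gave a two-sided p of 0.1, which is the smallest that 3 libraries against 3 can give. The targeted gene thus moved as the labels say. The mRNA level does not measure protein, since a Cas9 edit alters the coding sequence and transcripts with a frameshift can persist.

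*TRA2B* mRNA was at 90.2, 83.5 and 89.1 TPM in Control KO and at 97.5, 98.5 and 116 TPM in *TRA2A* KO. The groups did not overlap, but the rise did not pass the test over all genes (log2 fold change 0.28, SE 0.0933, adjusted p = 0.0632). Without *TRA2A* KO replicate 1 the adjusted p was 0.0449, and without *TRA2A* KO replicate 3 the log2 fold change was 0.17. Separation of this kind was common, since the 3 *TRA2A* KO libraries were above all 3 controls for 13.4% of the genes tested and below for 18.8%.

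**Figure D1:**
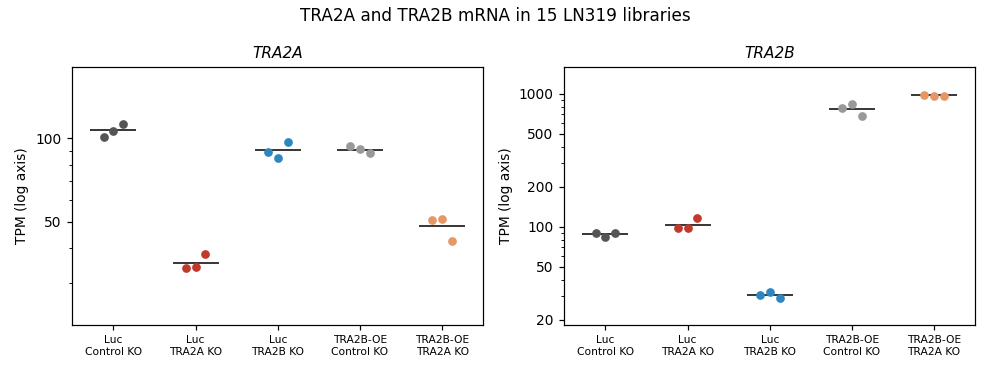
*TRA2A* (left) and *TRA2B* (right) in TPM on log axes, 1 point per library and a bar at the mean of the 3 replicates in each of the 5 LN319 groups. The *TRA2A* KO libraries of Luc cells lie between 33.9 and 38.3 TPM of *TRA2A*, below all other groups, and between 97.5 and 116 TPM of *TRA2B*, just above the Control KO.

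The *TRA2A* knockout changed the level of a small share of genes by more than 2-fold. Genes past both an adjusted p of 0.05 and a 2-fold change in either direction were counted as differentially expressed (DEGs). Of these, 173 rose and 189 fell, 0.896% and 0.979% of the genes tested. At an adjusted p under 0.05 with any fold change, 1316 genes rose (6.82%) and 1436 fell (7.44%), and 5423 had an unadjusted p under 0.05. The split depended on the scaling, since 956 rose and 1861 fell in the TPM as deposited. Of the 362 DEGs, 356 had groups that did not overlap. In 210 of them both group means were under 5 TPM. In bulk RNA a lower level in every cell and fewer cells that express a gene cannot be told apart. Protein-coding genes made up 86 of the DEGs that rose (49.7%) and 121 of those that fell (64.0%), against 68.0% of all genes tested. Names without a match in the annotation counted as not protein-coding. They were 51 of the DEGs that rose, 40 of those that fell and 3522 of all genes tested, so these shares depend on the matching of names.

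**Figure D2:**
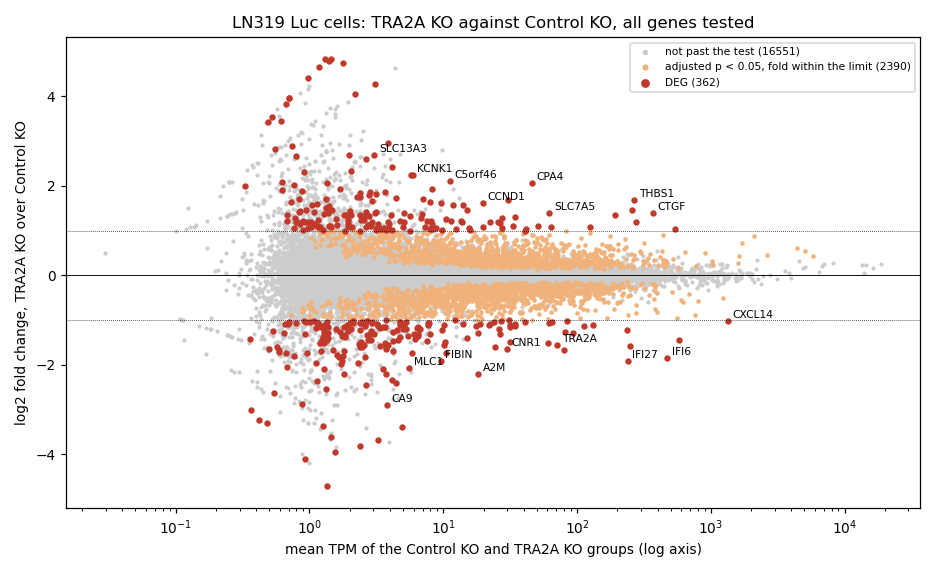
Each point is 1 of the 19303 genes, with the mean TPM of the Control KO and *TRA2A* KO groups on the x axis (log scale) and the fitted log2 fold change of *TRA2A* KO over Control KO on the y axis. The 362 DEGs are red, and the dotted lines mark log2 fold changes of 1 and -1. *SLC13A3*, *CPA4* and *THBS1* stand out above, and *CA9*, *A2M* and *IFI27* below.

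Among the protein-coding genes that rose most, *SLC13A3*, a sodium-coupled carrier of dicarboxylates, was at 0.660, 0.995 and 0.688 TPM in Control KO and 5.91, 5.40 and 4.72 TPM in *TRA2A* KO (log2 fold change 2.68, SE 0.204, adjusted p = 1.96e-05). *CPA4*, a secreted carboxypeptidase, went from 15.1, 20.2 and 19.5 TPM to 74.0, 68.6 and 80.4 TPM (log2 fold change 2.07, SE 0.234, adjusted p = 2.43e-04). *KCNK1*, a potassium channel of the background leak kind, was at 1.05, 2.77 and 2.60 TPM and then 9.48, 7.31 and 12.3 TPM (log2 fold change 2.25, SE 0.458, adjusted p = 0.00664). In each of these genes the lowest knockout library was more than 2 times the highest control.

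*CCND1*, which encodes cyclin D1 and drives entry into S phase, was at 8.72, 11.2 and 9.85 TPM in Control KO and 31.2, 27.04 and 30.9 TPM in *TRA2A* KO (log2 fold change 1.62, SE 0.279, adjusted p = 0.00243). *THBS1*, a matrix glycoprotein that can activate TGF-beta, was at 107, 123 and 156 TPM and 379, 340.3 and 495 TPM (log2 fold change 1.69, SE 0.216, adjusted p = 4.36e-04). *CTGF*, the matrix-associated growth factor now called CCN2, was at 173, 169.9 and 274 TPM and 463, 428 and 693 TPM (log2 fold change 1.40, SE 0.220, adjusted p = 0.00139). For *THBS1* and *CTGF* replicate 3 was the highest library in both groups. No knockout library reached down to a control, which was a condition of the rule that named them.

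The metabolic enzymes *CYP1B1* (1.58, adjusted p = 7.77e-05), a cytochrome P450, and *ALDH1A3* (1.47, adjusted p = 3.05e-04), which makes retinoic acid, also rose. So did the proprotein convertase gene *PCSK5* (1.57, adjusted p = 0.00285), the guanylate cyclase activator gene *GUCA1B* (1.40, adjusted p = 1.96e-05), the amino acid transporter gene *SLC7A5* (1.39, adjusted p = 5.25e-05) and *C5orf46* (2.10, adjusted p = 4.36e-04), an open reading frame with no role given here. Among other DEGs that rose, picked after their values were seen, were genes of secreted signals: *DKK1*, an inhibitor of Wnt signalling (1.34, adjusted p = 7.77e-05), *EDN1*, which encodes endothelin (1.31, adjusted p = 0.00129), *INHBA*, an activin subunit (1.25, adjusted p = 0.00207), and *EREG*, a ligand of the epidermal growth factor receptor (1.19, adjusted p = 6.24e-04).

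Of the protein-coding genes that fell, *CA9* had the largest fold change under the rule for named genes. This cell-surface carbonic anhydrase is a textbook target of hypoxia signalling. It was at 9.28, 6.37 and 4.62 TPM in Control KO and at 0.537, 1.30 and 0.630 TPM in *TRA2A* KO (log2 fold change -2.90, SE 0.383, adjusted p = 5.29e-04). *A2M*, a secreted protease inhibitor, was at 31.2, 34.2 and 24.8 TPM and 6.82, 5.82 and 6.05 TPM (log2 fold change -2.21, SE 0.184, adjusted p = 3.98e-05). *CNR1*, the cannabinoid receptor of neurons and glia, was at 40.6, 51.3 and 45.2 TPM and 15.3, 13.8 and 13.0 TPM (log2 fold change -1.65, SE 0.0942, adjusted p = 2.41e-06). The 3 knockout libraries of *A2M* and *CNR1* lay close to each other and far from the controls.

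Of the other protein-coding genes named for their fall, *MLC1*, a membrane protein of astrocyte end feet, was at 7.88, 9.02 and 10.4 TPM in Control KO and 1.91, 1.96 and 2.27 TPM in *TRA2A* KO (log2 fold change -2.06, SE 0.260, adjusted p = 3.91e-04). *P2RY6*, a receptor for extracellular nucleotides (-2.21, adjusted p = 6.21e-04), the mineralization inhibitor gene *MGP* (-2.09, adjusted p = 0.00115), the secreted-protein gene *FIBIN* (-1.92, adjusted p = 4.36e-04) and *C1QTNF1*, an adiponectin relative (-1.74, adjusted p = 0.00176), had lower levels in all 3 knockout libraries than in any control. That separation was a condition of the rule that named them. The remaining 4 of the 12 protein-coding genes named for the size of their fall, *IFI27*, *IFI6*, *OAS2* and *BST2*, are interferon-stimulated genes and are described with that list.

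Among genes that passed the test, those that rose most by difference in mean TPM were *RNA5-8S5*, *MT-RNR1*, *MT-ND2*, *FN1* and *MT-ND6*, and those that fell most were *CXCL14*, *RN7SL2*, *IFI6*, *IFITM3* and *DLK1*. *FN1*, which encodes fibronectin, was at 1542, 1559.5 and 1417 TPM in Control KO and 2768, 2735 and 2591 TPM in *TRA2A* KO (log2 fold change 0.88, SE 0.124, adjusted p = 7.41e-04). The chemokine gene *CXCL14* was at 2039, 1938 and 1506 TPM and 841, 885 and 881 TPM (log2 fold change -1.02, SE 0.158, adjusted p = 0.0013). *DLK1*, a Notch-related membrane protein, was at 1654, 1465 and 1239 TPM and 1014, 1017 and 951 TPM (-0.50, adjusted p = 0.0418). *RN7SL2*, a copy of the signal recognition particle RNA, fell (-1.45, adjusted p = 0.00795), and *RNA5-8S5*, a ribosomal RNA, rose (0.54, adjusted p = 0.0329). Both RNAs lack a poly(A) tail and have near-identical copies, so their values in poly(A)-selected libraries are uncertain. Leaving out 1 library ended the calls of *DLK1* (adjusted p = 0.155 without Control KO replicate 1) and *RNA5-8S5* (adjusted p = 0.113 without Control KO replicate 3).

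Outside protein-coding genes, the rule named transcripts of low level with a wide spread. RP5-1033H22.2 (2.95, adjusted p = 0.00558), AC079354.5 (2.43, adjusted p = 7.34e-04) and the small nuclear RNA copy *RNU6-767P* (4.27, adjusted p = 0.0141) rose. *RNU6-242P* (-3.68, adjusted p = 0.00944), RP11-44K6.2 (-2.41, adjusted p = 0.00744) and the microRNA host locus *MIR548AN* (-3.39, adjusted p = 0.0375) fell. *RNU6-767P* was at 0 in 2 control libraries, and *RNU6-242P* and *MIR548AN* were at 0 in 1 knockout library each, so their fold changes depend on the pseudocount. With 1 library left out, significance was lost for *RNU6-767P* (adjusted p = 0.0601 without Control KO replicate 1) and *MIR548AN* (adjusted p = 0.118 without Control KO replicate 1).

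Gene lists were read by how many members passed the test in each direction, against a background of 6.82% up and 7.44% down. The lists of the 19 with the largest shifts of the median were interferon-stimulated genes, below 0, and genes of the *ATF4* and endoplasmic reticulum (ER) stress responses and targets of NRF2, above 0. For comparison, the median log2 fold change of all genes tested was 0.012.

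**Figure D3:**
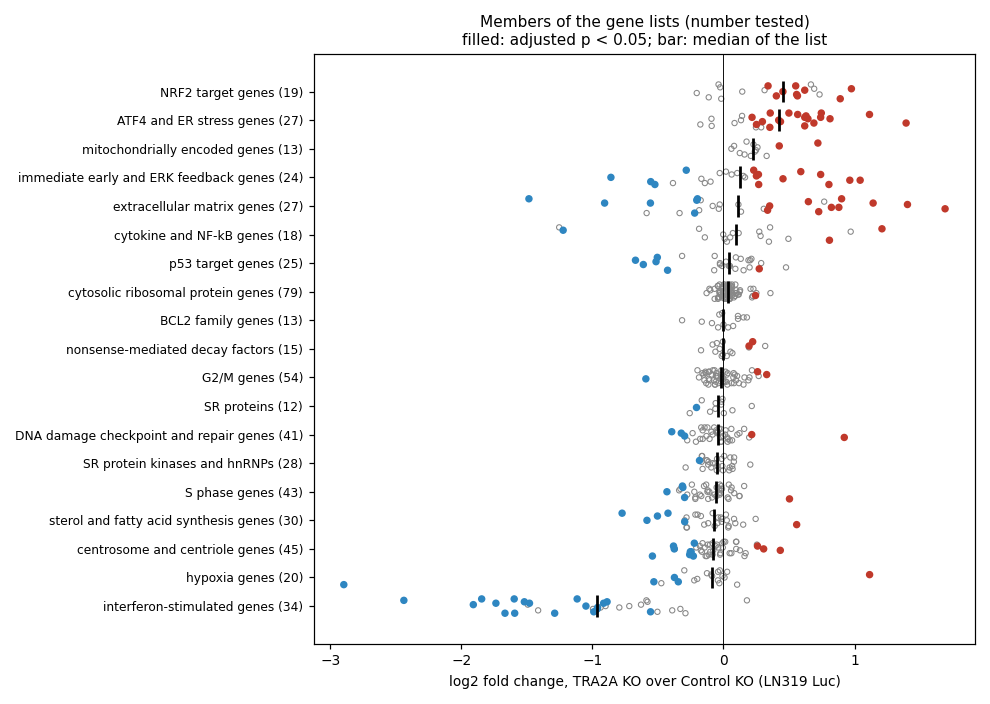
Log2 fold changes of *TRA2A* KO over Control KO for the tested members of 19 gene lists, 1 point per gene, filled where the adjusted p was under 0.05 (red up, blue down), with a bar at the median of each list. The interferon-stimulated genes have the lowest median (-0.97), and the NRF2 targets (0.45) and the *ATF4* and ER stress genes (0.42) the highest.

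Interferon-stimulated genes encode antiviral proteins and are switched on by factors that bind the interferon-stimulated response element (ISRE) in their promoters. Of the 34 genes of this list, 18 fell and 0 rose, 12 of them as DEGs, and 33 had a negative log2 fold change. The letters GAAANNGAAA, a core of the ISRE, were searched on both strands in RefSeq promoters (GRCh38.p14, 250 bases before to 50 after the start, 300 bases). They were in 17 of the 26 list members with a promoter sequence (65.4%), in 8 of the 14 of those that fell and in 2.90% of the 10695 promoters of genes tested. Windows of 30 bases from 4 members that fell are shown because they carry the sequence by which the list is known, with the match in capitals.
IFI6 (chr1:27672329-27672358, minus strand, match 156 bases before the start): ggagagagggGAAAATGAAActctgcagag
BST2 (chr19:17405741-17405770, minus strand, match 130 bases before the start): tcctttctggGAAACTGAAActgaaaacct
IFI27 (chr14:94110631-94110660, plus strand, match 95 bases before the start): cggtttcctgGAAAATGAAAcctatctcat
OAS3 (chr12:112938321-112938350, plus strand, match 143 bases before the start): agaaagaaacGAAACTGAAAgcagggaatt

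*IFI27*, an interferon-induced mitochondrial and membrane protein, was at 416, 402 and 259.6 TPM in Control KO and 232, 82.1 and 39.7 TPM in *TRA2A* KO (log2 fold change -1.91, SE 0.534, adjusted p = 0.0316). *IFI6*, a related inhibitor of apoptosis, was at 899.8, 868 and 432 TPM and 356, 170.2 and 111 TPM (log2 fold change -1.84, SE 0.471, adjusted p = 0.0211). *BST2*, or tetherin, which holds budding virus at the membrane, was at 135, 152 and 79.7 TPM and 51.1, 35.2 and 26.1 TPM (log2 fold change -1.67, SE 0.441, adjusted p = 0.0249). In all 3 genes, Control KO replicate 3 was the lowest control and *TRA2A* KO replicate 1 the highest knockout, and for *IFI27* and *IFI6* the gap between these 2 libraries was smaller than the range within either group.

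*PARP9* (-0.99, adjusted p = 0.00321) and its partner *DTX3L* (-0.89, adjusted p = 0.00525), which together modify histones, fell as well. *OAS2*, which makes the activator of RNase L, fell (-1.74, adjusted p = 0.0177), as did *XAF1* (-1.48, adjusted p = 0.0221), which promotes apoptosis, and *IFI44L* (-2.44, adjusted p = 0.049987), of poorly known function. *IFI44* (-1.41, adjusted p = 0.0664) did not pass. *IFITM3*, a barrier to virus entry named for its high level, was at 1113, 1037 and 851 TPM and 583, 487 and 502 TPM (-0.89, adjusted p = 0.022). Outside the list, the interferon-inducible DEGs *CASP1* (-1.19, adjusted p = 0.0124), *GBP2* (-1.12, adjusted p = 2.20e-04), *IDO1* (-1.30, adjusted p = 1.21e-04) and *TNFSF10* (-1.40, adjusted p = 0.00541), picked after their values were seen, also fell.

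The count of 18 rested on particular libraries. The summed level of the list was 3420, 3457 and 2274 TPM in Control KO and 2015, 1460 and 1171 TPM in *TRA2A* KO, so every knockout library was below every control, but Control KO replicate 3 was nearer to *TRA2A* KO replicate 1 than to its own group. The median SD within groups was 0.42 (log2) for the list and 0.15 for all genes tested. Without Control KO replicate 3 the count was 23 and without *TRA2A* KO replicate 1 it was 20. It dropped to 5 without Control KO replicate 1, 4 without Control KO replicate 2, 7 without *TRA2A* KO replicate 2 and 4 without *TRA2A* KO replicate 3. Among the genes named above, the calls of *IFI27* (adjusted p = 0.117 without *TRA2A* KO replicate 3), *IFI6* (adjusted p = 0.0837 without *TRA2A* KO replicate 3), *BST2* (adjusted p = 0.0873 without *TRA2A* KO replicate 3), *OAS2* (adjusted p = 0.0701 without *TRA2A* KO replicate 3), *XAF1* (adjusted p = 0.0873 without *TRA2A* KO replicate 3), *IFI44L* (adjusted p = 0.179 without *TRA2A* KO replicate 3) and *IFITM3* (adjusted p = 0.0793 without Control KO replicate 1) were lost, and those of *PARP9* and *DTX3L* were kept. No member rose in any of these fits.

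**Figure D4:**
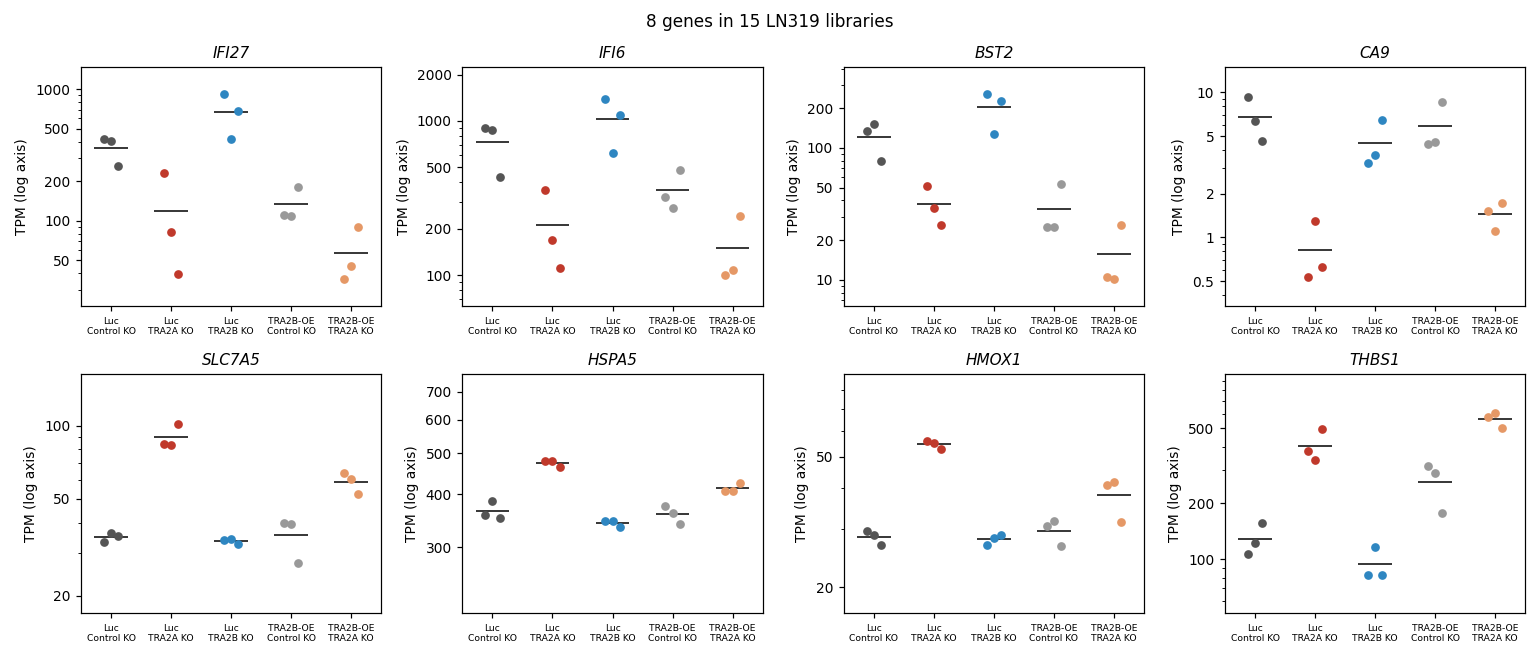
TPM of 8 genes in each of the 15 LN319 libraries (log axes), with 1 point per library and a bar at the group mean. In Luc cells the *TRA2A* KO libraries lie below all Control KO libraries for *IFI27*, *IFI6*, *BST2* and *CA9* and above them for *SLC7A5*, *HSPA5*, *HMOX1* and *THBS1*. In TRA2B-OE cells the groups overlap for *BST2* and *HMOX1*.

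*ATF4* is the transcription factor of the integrated stress response. It raises amino acid synthesis and transport, while the unfolded protein response of the ER raises chaperones. Of the 27 genes of this list, 19 rose and 0 fell. The count was 16 to 17 when any 1 of the 6 libraries was left out, and 1 member fell without *TRA2A* KO replicate 3. *SLC7A5*, a subunit of a leucine transporter, was at 33.3, 36.1 and 35.2 TPM in Control KO and 83.8, 83.6 and 102 TPM in *TRA2A* KO (log2 fold change 1.39, SE 0.123, adjusted p = 5.25e-05). *ASNS*, asparagine synthetase, was at 35.7, 38.8 and 34.1 TPM and 56.5, 62.2 and 58.7 TPM (log2 fold change 0.75, SE 0.0852, adjusted p = 2.43e-04). *HSPA5*, the ER chaperone BiP, was at 357, 385 and 351 TPM and 480.1, 480.4 and 464 TPM (log2 fold change 0.42, SE 0.0506, adjusted p = 3.20e-04). The groups were well separated in each of the 3, and the spread within groups was far smaller than for the interferon-stimulated genes.

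Among the other members that rose were *STC2*, a secreted glycoprotein (1.11, adjusted p = 7.41e-04), *CHAC1*, which degrades glutathione (0.81, adjusted p = 0.00172), *DDIT3*, the factor CHOP (0.69, adjusted p = 0.00129), and *ATF4* (0.35, adjusted p = 0.00242). *SLC7A11*, the cystine transporter gene shared with the NRF2 list, rose as well (0.62, adjusted p = 0.0237). *PHGDH* (0.13, adjusted p = 0.666), *SHMT2* (0.14, adjusted p = 0.166) and *PSPH* (-0.09, adjusted p = 0.592), enzymes of serine and glycine synthesis, did not pass. *PSAT1*, another enzyme of serine synthesis on the list, was at 53.8 to 60.2 TPM in Control KO and 75.7 to 88.7 TPM in *TRA2A* KO. The letters TGATGNAA, part of the element that *ATF4* binds with C/EBP proteins, were in 5 of the 22 list members with a promoter sequence (22.7%), all 5 among the 17 that rose, and in 1.62% of the promoters of genes tested. Windows from 3 of them are shown for this match (capitals, on the opposite strand in *CHAC1* and *HERPUD1*).
ASNS (chr7:97872458-97872487, minus strand, match 68 bases before the start): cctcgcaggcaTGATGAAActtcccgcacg
CHAC1 (chr15:40953251-40953280, plus strand, match 209 bases before the start): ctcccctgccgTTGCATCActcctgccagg
HERPUD1 (chr16:56931955-56931984, plus strand, match 176 bases before the start): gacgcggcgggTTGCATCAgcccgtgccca

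NRF2 is the factor that raises antioxidant genes under oxidative stress. Of its 19 targets tested, 9 rose and 0 fell, with a range of 6 to 8 when 1 library was left out. *HMOX1*, heme oxygenase, was at 29.7, 28.7 and 26.95 TPM in Control KO and 55.7, 55.1 and 52.9 TPM in *TRA2A* KO (log2 fold change 0.98, SE 0.0773, adjusted p = 2.38e-05). *GCLM* (0.56, adjusted p = 0.00124), a subunit of the enzyme that starts glutathione synthesis, and *TXNRD1* (0.56, adjusted p = 0.00168), thioredoxin reductase, rose by less. *NQO1*, a quinone reductase, rose (0.89, adjusted p = 0.00237), and the ferritin genes *FTH1* (0.45, adjusted p = 0.0167) and *FTL* (0.55, adjusted p = 0.00971) did so as well. The pentose phosphate genes *TKT* (-0.20, adjusted p = 0.255) and *PGD* (-0.11, adjusted p = 0.37) did not pass. The letters TGACNNNGC of the antioxidant response element were in 4 of 15 members (26.7%) and in 15.1% of promoters of genes tested, and 2 of the 6 members that rose and had a promoter sequence held them.
GCLM (chr1:93909445-93909474, minus strand, match 34 bases before the start, opposite strand): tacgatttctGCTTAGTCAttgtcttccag
TXNRD1 (chr12:104215670-104215699, plus strand, match 99 bases before the start): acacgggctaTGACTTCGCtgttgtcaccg

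Extracellular matrix genes moved in both directions, with 10 of 27 tested members up and 6 down. Besides *THBS1* and *FN1*, *TGFBI*, an adhesion protein induced by TGF-beta, rose from 5.09, 4.89 and 5.69 TPM to 11.8, 11.4 and 10.8 TPM (log2 fold change 1.14, SE 0.140, adjusted p = 3.48e-04), and *FBN1*, fibrillin, rose (0.65, adjusted p = 5.96e-04). *THBS2*, a relative of *THBS1*, fell from 15.6, 16.1 and 14.1 TPM to 5.36, 5.57 and 4.83 TPM (log2 fold change -1.48, SE 0.139, adjusted p = 7.73e-05). *TNC*, the glioma matrix protein tenascin C, was at 709.8, 776 and 693 TPM in Control KO and 495, 503 and 444 TPM in *TRA2A* KO (log2 fold change -0.56, SE 0.0566, adjusted p = 1.27e-04). *COL6A1*, a collagen, fell by less (-0.20, adjusted p = 0.0437). The 2 thrombospondin genes thus changed in opposite directions, each without overlap of the groups. The count of members down was lower whichever of the 6 libraries was left out. It was 2 without Control KO replicate 1, 2 or 3 or *TRA2A* KO replicate 1, 3 without *TRA2A* KO replicate 2 and 4 without *TRA2A* KO replicate 3. Among the genes named the call was lost for *COL6A1* in 5 of those 6 fits (at most adjusted p = 0.161, without *TRA2A* KO replicate 2). Of the members, 7 to 10 rose in those fits. *COL1A1* and *COL1A2* are also on the fibroblast marker list, whose summed level fell as given above.

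Immediate early genes and feedback regulators of the ERK pathway had 10 of 24 members up and 4 down. Without 1 library 8 to 10 rose, while 1 fell without Control KO replicate 1 or 2 or *TRA2A* KO replicate 2 and 2 fell without any of the other 3. *FOSL1*, an AP-1 subunit, rose from 25.5, 27.02 and 30.4 TPM to 56.4, 50.5 and 59.8 TPM (log2 fold change 1.04, SE 0.143, adjusted p = 6.24e-04). *IER3*, a survival factor induced by stress (0.80, adjusted p = 2.15e-04), and *SPRY2*, an inhibitor of receptor tyrosine kinase signalling (0.59, adjusted p = 1.70e-04), rose too. *DUSP6* (-0.55, adjusted p = 0.00477) and *DUSP4* (-0.28, adjusted p = 0.015), phosphatases of ERK, and the AP-1 gene *FOS* (-0.52, adjusted p = 0.0491) fell. Of 18 cytokine and NF-kB genes, *IL1B* (1.21, adjusted p = 0.00129) and *IL11* (0.81, adjusted p = 7.41e-04) rose and *CSF1*, the macrophage growth factor, fell from 318, 382 and 298 TPM to 136, 148 and 130.0 TPM (log2 fold change -1.22, SE 0.123, adjusted p = 1.21e-04). In fits without 1 library the adjusted p rose past 0.05 for *FOS* (adjusted p = 0.161 without Control KO replicate 1) and *DUSP4* (adjusted p = 0.0638 without Control KO replicate 1).

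Few cell cycle genes passed the test. Of 54 G2/M genes, *RANGAP1* (0.33, adjusted p = 0.0124), a regulator of nuclear transport, and *ECT2* (0.26, adjusted p = 0.0154), which acts in cytokinesis, rose, and *PSRC1* (-0.59, adjusted p = 3.91e-04), a spindle protein, fell. Of 43 S phase genes, *TIPIN* (0.50, adjusted p = 0.0177), of the fork protection complex, rose and 4 fell. Those 4 included *NASP*, a histone chaperone (-0.43, adjusted p = 5.45e-04), *POLA1*, the catalytic subunit of DNA polymerase alpha (-0.31, adjusted p = 0.0167), and *BRIP1*, a repair helicase (-0.30, adjusted p = 0.0397). The list medians were -0.02 for G2/M and -0.05 for S phase genes. Omitting 1 library ended the calls of *RANGAP1* (adjusted p = 0.0536 without Control KO replicate 2), *ECT2* (adjusted p = 0.0633 without Control KO replicate 1), *TIPIN* (adjusted p = 0.0736 without Control KO replicate 2), *POLA1* (adjusted p = 0.0678 without *TRA2A* KO replicate 1) and *BRIP1* (adjusted p = 0.136 without Control KO replicate 2), while *PSRC1* and *NASP* kept theirs. In the TPM as deposited 9 S phase genes and 4 G2/M genes fell.

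Centrosome and centriole genes had 8 of 45 members down, 3 up and a median of -0.08. The count down was 4 without Control KO replicate 1 or *TRA2A* KO replicate 2, 5 without Control KO replicate 2 or 3 or *TRA2A* KO replicate 1, 6 without *TRA2A* KO replicate 3 and 2 with only the compared groups in the fit. Of the members, 0 to 3 rose without 1 library. *OFD1*, a centriole protein needed for the primary cilium whose splicing the study tested, was at 32.6, 32.3 and 30.02 TPM in Control KO and 23.1, 21.8 and 18.7 TPM in *TRA2A* KO (log2 fold change -0.54, SE 0.0619, adjusted p = 2.43e-04). *CNTRL*, a centriole protein also tested for splicing, was at 14.6, 16.7 and 14.2 TPM and 13.0, 10.7 and 10.4 TPM (-0.38, adjusted p = 0.0112). *CEP192*, a scaffold of centrosome maturation, was at 23.8, 25.3 and 24.0 TPM and 23.1, 19.5 and 17.4 TPM (-0.25, adjusted p = 0.0459). *CEP192* lost the call in 10 of 15 alternative settings. *CEP70* (-0.26, adjusted p = 0.00765) and *PCM1* (-0.23, adjusted p = 0.0101) fell, and the microtubule nucleation genes *HAUS2* (0.31, adjusted p = 0.0227) and *TUBGCP3* (0.26, adjusted p = 0.0267) and the ciliogenesis kinase *TTBK2* (0.43, adjusted p = 0.0411) rose. The test was not passed in every fit without 1 library by *CEP192* (adjusted p = 0.157 without *TRA2A* KO replicate 3), *HAUS2* (adjusted p = 0.0903 without Control KO replicate 1), *TUBGCP3* (adjusted p = 0.0897 without Control KO replicate 1) and *TTBK2* (adjusted p = 0.143 without Control KO replicate 1), while *OFD1*, *CNTRL*, *CEP70* and *PCM1* kept theirs.

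Checkpoint and repair genes had 2 of 41 up and 3 down. *CHEK1*, the checkpoint kinase whose splicing the study tested, was at 40.1, 49.1 and 46.6 TPM in Control KO and 44.8, 41.9 and 48.2 TPM in *TRA2A* KO, which overlapped (log2 fold change 0.03, SE 0.0928, adjusted p = 0.874). *ATR*, the kinase upstream of *CHEK1*, was at 2.55, 2.41 and 2.42 TPM and 3.61, 5.67 and 4.82 TPM (log2 fold change 0.92, SE 0.211, adjusted p = 0.0126). *BRCA1* rose slightly (0.22, adjusted p = 0.0372). *FANCD2* (-0.32, adjusted p = 0.0113), of the crosslink repair pathway, *CHEK2* (-0.39, adjusted p = 0.0289) and *BRIP1* fell. Of 25 p53 targets 5 fell and *PLK3* (0.27, adjusted p = 0.0292) rose, while *CDKN1A* (0.15, adjusted p = 0.175) and *MDM2* (0.20, adjusted p = 0.133), common readouts of p53, did not pass. The p53 targets that fell included *TP53INP1*, a stress protein (-0.61, adjusted p = 2.69e-04), and the nucleotide excision repair genes *DDB2* (-0.67, adjusted p = 3.88e-04) and *XPC* (-0.43, adjusted p = 3.05e-04). The median of the p53 list was 0.041, so its sign differed from that of most of the called members. The call of *ATR* was lost in 1 of the 6 fits without 1 library (adjusted p = 0.0516 without *TRA2A* KO replicate 2). Those of *BRCA1* (at most 0.128, without Control KO replicate 2) and *PLK3* (at most 0.0908, without Control KO replicate 1) were lost in 5 of the 6. The calls of *CHEK2* (at most 0.103, without Control KO replicate 1) and *BRIP1* (at most 0.136, without Control KO replicate 2) were lost in 4 of the 6.

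Among other splicing and decay factors only a few genes passed the test. In the TPM as deposited, SR proteins summed to 2983 to 3008 TPM in Control KO and 2682 to 2863 TPM in *TRA2A* KO. SR protein kinases and hnRNPs summed to 7971 to 8378 and 7334 to 7789 TPM, and decay factors to 1422 to 1469 and 1398 to 1420 TPM. Of the 12 SR proteins only *SRSF11* passed (-0.21, adjusted p = 0.0331), and of 28 SR protein kinases and hnRNPs only *CLK2*, a kinase of SR proteins (-0.19, adjusted p = 0.0151). Both lost the call under quantile normalization, with adjusted p of 0.232 for *SRSF11* and 0.102 for *CLK2*. In that setting 1 SR protein fell and 0 rose, and of the 28 kinases and hnRNPs 3 fell and 1 rose. Of 15 factors of nonsense-mediated decay, *UPF3B* (0.22, adjusted p = 0.0297) and *UPF2* (0.20, adjusted p = 0.0342) rose. When 1 library was left out, the call was lost for *SRSF11* (adjusted p = 0.123 without *TRA2A* KO replicate 2), *CLK2* (adjusted p = 0.0656 without Control KO replicate 1), *UPF3B* (adjusted p = 0.107 without *TRA2A* KO replicate 3) and *UPF2* (adjusted p = 0.116 without Control KO replicate 1). Of the 13 BCL2 family genes 0 passed the limma test and 3 had an unadjusted p under 0.05. The smallest p was that of *BBC3*, a p53 target that promotes apoptosis (-0.32, adjusted p = 0.13), which passed without Control KO replicate 3 (adjusted p = 0.0258).

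Metabolic lists were mixed. *CA9*, *P4HA1* (-0.53, adjusted p = 0.00241), a collagen hydroxylase, *VEGFA* (-0.37, adjusted p = 0.016), the vascular growth factor, and *PDK1* (-0.34, adjusted p = 0.0281), which restrains pyruvate use, fell among 20 hypoxia genes. *ADM*, adrenomedullin, which is also induced by hypoxia, rose from 34.4, 32.9 and 31.5 TPM to 66.3, 65.2 and 77.8 TPM (log2 fold change 1.11, SE 0.102, adjusted p = 6.17e-05), and glycolytic members such as *SLC2A1* (-0.03, adjusted p = 0.833) and *PGK1* (-0.03, adjusted p = 0.915) did not pass. Of 30 sterol and fatty acid synthesis genes 5 fell, among them *HSD17B7* (-0.42, adjusted p = 0.00243), the regulator *SREBF2* (-0.30, adjusted p = 0.00358) and *INSIG1* (-0.50, adjusted p = 0.0133), and *SC5D* (0.56, adjusted p = 0.021) rose. The 5 became 7 in the TPM as deposited and under quantile normalization, 2 without *TRA2A* KO replicate 1 and 3 without *TRA2A* KO replicate 2 or any 1 Control KO library. The 4 hypoxia genes that fell became 2 without Control KO replicate 2 or *TRA2A* KO replicate 3. Among the genes the rule names, leaving out 1 library ended the calls of *VEGFA* (adjusted p = 0.0685 without Control KO replicate 2), *INSIG1* (adjusted p = 0.0517 without *TRA2A* KO replicate 1) and *SC5D* (adjusted p = 0.0829 without *TRA2A* KO replicate 3).

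All 13 mitochondrially encoded genes had a positive log2 fold change with a median of 0.23, and *MT-ND2* (0.43, adjusted p = 0.00681) and *MT-ND6* (0.72, adjusted p = 0.00333), subunits of complex I, passed. Under quantile normalization the median was 0.048 and 1 gene passed. Of 79 cytosolic ribosomal protein genes *RPL26* passed (0.24, adjusted p = 0.0217), and the median was 0.036, or -0.0024 in the TPM as deposited. Under quantile normalization 7 of the 79 rose and 1 fell, with a median of 0.027. *RPL26* lost its call in 4 of the 6 fits without 1 library, those without Control KO replicates 1 and 3 or *TRA2A* KO replicates 2 and 3 (the highest adjusted p was 0.0752, without Control KO replicate 3).

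Position along chromosome 7 and transcript features were compared for the genes called. The 101 genes of chromosome 7p distal to *TRA2A*, on the telomere side of the cut, had a median log2 fold change of -0.05, with 4 up and 9 down. The 125 genes between *TRA2A* and the centromere had a median of -0.02 (15 up, 8 down) and the 491 genes of 7q a median of 0.0036. Genes that fell at an adjusted p under 0.05 had a median GC content of 52.6%, those that rose 48.3% and all genes tested 49.8%. Their median transcript lengths were 1377, 1258 and 1022 bases.

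The TRA2B-OE cells address whether a high level of the paralog changes the response to the loss of *TRA2A*. *TRA2B* mRNA in TRA2B-OE Control KO cells was 8.73 times that of Luc Control KO cells. *TRA2A* mRNA was at 93.7, 91.4 and 88.2 TPM in TRA2B-OE Control KO and 50.7, 51.3 and 42.4 TPM in TRA2B-OE *TRA2A* KO, or 52.8% (log2 fold change -0.87, SE 0.0809, adjusted p = 9.10e-04), against 33.2% in Luc cells. The difference of these 2 responses did not pass the test over all genes (-0.68, adjusted p = 0.117). In TRA2B-OE cells 285 genes rose (1.48%) and 249 fell (1.29%) at an adjusted p under 0.05, of which 45 were DEGs, against 1316, 1436 and 362 in Luc cells. Of the 362 DEGs of Luc cells 321 (88.7%) had the same sign in TRA2B-OE cells, against 68.8% of all genes tested. Of these DEGs, 75 also passed there with that sign. The 27 genes that were DEGs in both made up 7.46% of the Luc DEGs and 60.0% of the TRA2B-OE DEGs.

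The size of the response was smaller in TRA2B-OE cells for the Luc DEGs, whose median absolute log2 fold change was 1.31 in Luc and 0.62 in TRA2B-OE cells. These genes were chosen for a large change in Luc cells, so a smaller one elsewhere is built into the choice. For the 45 DEGs of TRA2B-OE cells the medians were 1.32 in TRA2B-OE and 1.40 in Luc cells, and 20 of them changed less in Luc cells. Over all genes the median absolute values were 0.19 and 0.15. The groups in the 2 backgrounds share no library.

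**Figure D5:**
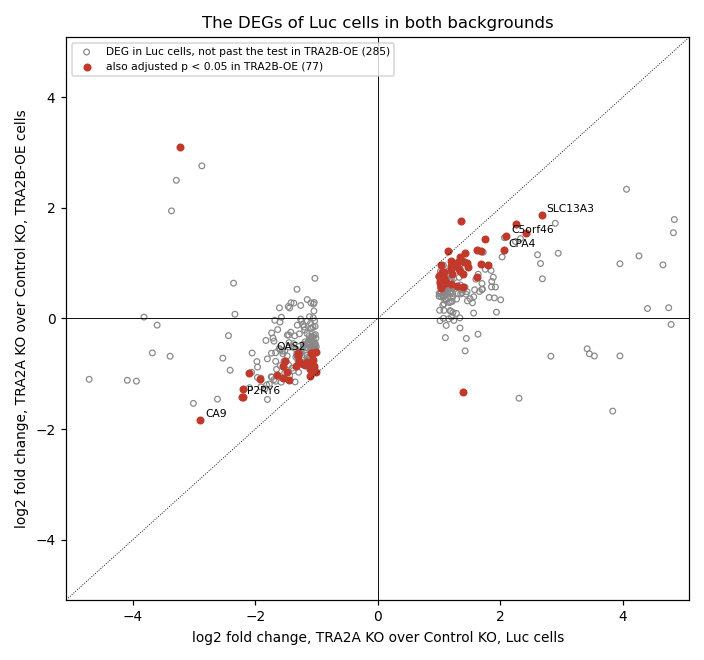
Log2 fold changes of *TRA2A* KO over Control KO in Luc cells (x axis) and TRA2B-OE cells (y axis) for the 362 DEGs of Luc cells, filled where the adjusted p in TRA2B-OE cells was under 0.05. Most points lie in the quadrants of equal sign (321 genes) and closer to 0 on the y axis than the dotted line of equal change. The share of equal sign is 88.7%, against 68.8% of all genes tested.

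The test of the difference between the 2 responses called 4 genes (0.0207% of those tested), of which 2 had a difference above 1 (log2), while 1527 had an unadjusted p under 0.05. *RNF43*, a ubiquitin ligase that limits Wnt signalling, was at 19.1, 20.7 and 18.1 TPM in Luc Control KO and 8.34, 8.80 and 9.27 TPM in Luc *TRA2A* KO. In TRA2B-OE cells it was at 26.9, 26.6 and 27.5 TPM and 23.9, 22.2 and 22.6 TPM (difference of the log2 fold changes -0.90, adjusted p = 0.019). The log2 fold change was -1.08, adjusted p = 1.96e-05 in Luc cells and -0.18, adjusted p = 0.263 in TRA2B-OE cells.

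*LINC01133*, a long noncoding RNA, was at 83.0, 82.7 and 81.2 TPM in Luc Control KO and 52.5, 50.9 and 47.0 TPM in Luc *TRA2A* KO, and at 81.8, 86.4 and 81.4 TPM and 82.1, 74.9 and 70.0 TPM in TRA2B-OE cells (difference -0.60, adjusted p = 0.018). RP11-477H21.2 was at 5.96, 5.98 and 5.04 TPM and 1.54, 2.10 and 1.63 TPM in Luc cells, and at 5.61, 4.86 and 5.25 TPM and 6.23, 4.81 and 6.37 TPM in TRA2B-OE cells (difference -1.80, adjusted p = 0.019). The remaining gene, known only by a clone name, was listed at 0 in all 3 Luc *TRA2A* KO libraries and at 0.648, 1.20 and 0.683 TPM in Luc Control KO, and it was at 0.0646, 0.0607 and 0.130 TPM in TRA2B-OE Control KO and 2.14, 2.00 and 0.676 TPM in TRA2B-OE *TRA2A* KO (adjusted p of the difference = 0.00952). Without Luc Control KO replicate 2 all 4 calls were lost, with adjusted p of 0.0746 for *RNF43* and RP11-477H21.2 and 0.0583 for *LINC01133* and the clone-named gene. All 4 were also lost with the replicate block (adjusted p from 0.0508 to 0.0742) and with only the compared groups in the fit (0.0591 to 0.0611). Without Luc Control KO replicate 1 the calls of *RNF43*, *LINC01133* and RP11-477H21.2 were lost. *RNF43* lost its call without Luc *TRA2A* KO replicate 2, TRA2B-OE Control KO replicate 2 or TRA2B-OE *TRA2A* KO replicate 1 or 3, and RP11-477H21.2 without Luc *TRA2A* KO replicate 3, any TRA2B-OE Control KO library or TRA2B-OE *TRA2A* KO replicate 1 or 3.

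The medians of the leading lists were closer to 0 in TRA2B-OE cells, though the difference was not tested for lists. The interferon-stimulated genes had a median of -0.40 with 0 of 34 called, and the TRA2B-OE Control KO libraries already summed to 1928 to 2517 TPM of these genes, below Luc Control KO replicates 1 and 2 (3420 and 3457 TPM). The *ATF4* and ER stress genes had a median of 0.24 with 3 of 27 up, and the NRF2 targets a median of 0.28 with 3 of 19 up. No member of these lists passed the test of the difference between backgrounds. *SLC7A5* rose in TRA2B-OE cells too (0.80, adjusted p = 0.0095), as did *HMOX1* (0.41, adjusted p = 0.0206) and *THBS1* (1.21, adjusted p = 0.0161), while *ASNS* did not pass (0.27, adjusted p = 0.116). *OFD1* had a log2 fold change of -0.28 (adjusted p = 0.033) and *CNTRL* of -0.12 (adjusted p = 0.485).

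*TRA2A* KO was also set directly against *TRA2B* KO in Luc cells, to show where the effects of the paralogs differ. At an adjusted p under 0.05, 5040 genes were higher in *TRA2A* KO (26.1%) and 4062 lower (21%). There were 1224 DEGs, 438 higher and 786 lower. The split depended on the scaling, with 295 higher and 1153 lower in the TPM as deposited and 562 and 575 under quantile normalization. The TPM as deposited also moved the median of all genes by -0.14 (log2). *TRA2A* was at 89.5, 84.8 and 97.1 TPM in *TRA2B* KO and *TRA2B* at 30.6, 32.4 and 29.3 TPM, so each knockout had the lower level of its own target.

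Interferon-stimulated genes were lower in *TRA2A* KO than in *TRA2B* KO for 32 of 34 members and higher for 0, with a median difference of -1.66 (log2). The list summed to 6233, 3499 and 5000 TPM in *TRA2B* KO. Against Control KO, 10 members were higher in *TRA2B* KO and 0 lower, with a median log2 fold change of 0.67. *IFI44L* was at 1.82, 0.624 and 0.124 TPM in *TRA2A* KO and 24.4, 6.57 and 13.1 TPM in *TRA2B* KO (difference -4.13, adjusted p = 6.59e-04). *XAF1* was at 24.4, 15.5 and 9.41 TPM and 248, 99.2 and 154 TPM (difference -3.19, adjusted p = 3.02e-05), and *IFI44* differed by -2.90 (adjusted p = 2.95e-04). Every *TRA2B* KO library was above every *TRA2A* KO library for these genes, which was a condition of the rule that named them. Under the other scalings 30 to 32 members were lower and 0 higher.

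*ATF4* and ER stress genes were higher in *TRA2A* KO for 21 of 27 members and lower for 1 (19 higher and 2 to 3 lower under the other scalings). NRF2 targets were higher for 15 of 19 and lower for 0 (14 to 16 under the other scalings). Of the 79 ribosomal protein genes 77 were higher, with a median difference of 0.79. Under quantile normalization 59 were higher with a median of 0.32, and in the TPM as deposited 76 with a median of 0.64. Against Control KO, 76 of these genes were lower in *TRA2B* KO, with a median log2 fold change of -0.77. Of all 19303 genes tested, 4633 were lower and 3598 higher in that comparison at an adjusted p under 0.05. There *TRA2B* KO also had 14 NRF2 targets lower and 0 higher, with a median of -0.46. It had 10 *ATF4* and ER stress genes lower and 2 higher, with a median of -0.16. Centrosome and centriole genes were lower in *TRA2A* KO than in *TRA2B* KO for 17 of 45 and higher for 7 (22 to 25 lower under the other scalings). Against Control KO, 11 of them were higher in *TRA2B* KO and 6 lower. *OFD1* was at 23.1, 21.8 and 18.7 TPM in *TRA2A* KO and 41.1, 38.9 and 39.0 TPM in *TRA2B* KO (difference -0.76, adjusted p = 2.25e-06).

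Genes were ranked by fold change among protein-coding DEGs of this comparison whose groups did not overlap and whose higher mean was at least 5 TPM. Highest in *TRA2A* KO relative to *TRA2B* KO were *C5orf46* (difference 3.73, adjusted p = 1.30e-06), *RPL36A-HNRNPH2* (3.67, adjusted p = 0.00801), *KCNK1* (2.47, adjusted p = 6.82e-04), *ALDH1A1* (2.46, adjusted p = 1.86e-08) and *CPA4* (2.30, adjusted p = 9.99e-06). *ALDH1A1*, a retinaldehyde dehydrogenase, was at 198, 189.8 and 172 TPM in *TRA2A* KO and 37.1, 38.9 and 35.9 TPM in *TRA2B* KO. *RPL36A-HNRNPH2* is a read-through transcript that shares sequence with its 2 genes, so its value is uncertain. Besides interferon-stimulated genes, the lowest under the same limits were *SALL3*, a transcription factor (-3.23, adjusted p = 7.88e-04), and *CA4*, a carbonic anhydrase (-3.06, adjusted p = 1.67e-05).

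LN229, another human glioma cell line, carried the same Luc transgene and Control KO or *TRA2A* KO with 3 libraries each, and its values came from a separate table. *TRA2A* mRNA was left at 62.9% of control there, against 33.2% in LN319. The mRNA level does not measure how complete either knockout was. *CPA4* (2.24, adjusted p = 0.0393), *A2M* (-1.75, adjusted p = 0.00922), *THBS2* (-1.04, adjusted p = 0.026), *CTGF* (0.68, adjusted p = 0.036) and *ALDH1A3* (0.47, adjusted p = 0.00728) changed in LN229 with the sign they had in LN319, and so did *HMOX1* (0.49, adjusted p = 0.0372) and *TXNRD1* (0.81, adjusted p = 0.0354). *OFD1* had a log2 fold change of -0.22 (adjusted p = 0.352) and *CA9* of 0.20 (adjusted p = 0.833). The interferon-stimulated genes had a median of -0.48 with 0 of 34 called, the *ATF4* and ER stress genes a median of 0.06 with 2 up and 1 down, and the NRF2 targets a median of 0.18 with 3 up. In LN229 1.86% of all genes tested rose and 1.83% fell. Of the 211 DEGs of LN319 that were also tested in LN229, 148 (70.1%) had the same sign, against 59.9% of all 16426 genes tested in both lines. The 11 genes that were DEGs in both made up 5.21% of those 211 and 13.6% of the LN229 DEGs tested in both lines. The difference between the lines was not tested.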

How the data were processed

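Poly(A)-selected, strand-specific libraries were sequenced in triplicate for each group. The authors quantified transcripts with kallisto (version 0.48.0) on the Gencode v34 annotation of GRCh38 and deposited the values as TPM per gene name. Many names are clone names of an older kind, so the release behind the names is uncertain. TPM keeps no depth, so read depth is unknown and no voom model could be fitted. Of 55906 names, 27 had been turned into dates and were not ranked. The 15 LN319 libraries were scaled with the trimmed mean of M values, written without weights for TPM (30% trimmed by ratio and 5% by level), moved to log2(TPM + 0.1), which understates changes of low genes, and fitted together in limma (version 3.58.1, R 4.3.3) with 5 groups, a mean-variance trend and Benjamini-Hochberg adjustment. The limit of 1 TPM in 4 libraries was applied over all groups. LN229 was fitted in its own table. The fit was tested on simulated data. Single genes were also put to the exact two-sided permutation test, where 106 of 111 named genes reached 0.1, the smallest p that 3 against 3 libraries allow. Groups without overlap always give this value. Most named genes were chosen for a limma call or for groups without overlap, so this count was largely fixed by the choice. Biotypes, lengths and GC content came from GENCODE 44, promoters from RefSeq (GRCh38.p14).

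Named genes were *TRA2A* and *TRA2B*, 4 genes that the study tested for splicing, the 12 protein-coding DEGs with the largest change in each direction whose groups did not overlap and whose higher mean was at least 5 TPM, 3 of other biotypes in each direction, the 5 largest differences in mean TPM in each direction, up to 3 members of each list in each direction by adjusted p, the genes called for the difference between backgrounds, and the 5 largest differences from *TRA2B* KO in each direction. The differences from *TRA2B* KO were ranked among protein-coding DEGs of that comparison, under the same limits of overlap and mean TPM. Other genes were named after their values were seen. Some genes that the rule names are not reported here. The members and gene lists were chosen with earlier results of these data known. Alternatives were other pseudocounts, filters, scalings and samples, a replicate block, removal of a trend with length and GC content, and leaving out each library.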

Additional observations from a re-analysis of the deposited data

Results flagged for a closer look

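The response to the *TRA2A* knockout differed between Luc and TRA2B-OE cells by the test of the difference in 4 genes. The log2 fold change in Luc cells minus that in TRA2B-OE cells was -0.60 for *LINC01133*, -0.90 for *RNF43*, -1.80 for RP11-477H21.2 and -6.32 for a gene known only by a clone name, and the last value depends on the pseudocount since the gene was listed at 0 in the Luc *TRA2A* KO libraries. All 4 calls were lost with the replicate block (limma adjusted p from 0.0508 to 0.0742), with only the compared groups in the fit (0.0591 to 0.0611) and without Luc Control KO replicate 2 (0.0583 to 0.0746). *IER3* and *PCSK5* had opposite signs in the cell lines without overlap of any library with its controls. *IER3* rose in LN319 and had a log2 fold change of -0.49 in LN229 (limma adjusted p = 0.0594), and *PCSK5* rose in LN319 and had one of -1.86 in LN229 (limma adjusted p = 0.157). Neither passed the test in LN229, and the difference between the lines was not tested.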

How the results depend on the processing

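Of the 105 named genes called, 64 kept the call in every alternative, 41 lost it in at least 1 and 0 changed direction. Leaving out 1 library ended the call of 36 of them. The 362 DEGs became 183 with a pseudocount of 1, 161 with a minimum of 5 TPM, 2752 with no minimum fold change and 278 to 375 without 1 library, of which 170 and 155 in the first 2 cases were among the 362. The count at an adjusted p under 0.05 became 1744 with only the compared groups in the fit and 1707 (without Control KO replicate 2) to 2284 without 1 library. The 2 DEGs for the difference between backgrounds became 1 with a pseudocount of 1, 12 with no filter on low values, 0 with a minimum of 5 TPM, the replicate block, the trend with length and GC content removed or only the compared groups, and 0 to 4 without 1 library. The 1224 DEGs against *TRA2B* KO became 712 with a pseudocount of 1 and 652 with a minimum of 5 TPM. The log2 fold change of *TRA2B* passed the test with a minimum of 5 TPM (0.28, adjusted p = 0.0329) and with the trend removed (0.23, adjusted p = 0.0487) and ranged from 0.17 to 0.35 without 1 library. *CHEK1*, which was not called, was at -0.0069 in the TPM as deposited, at -0.0045 with the trend removed and at -0.054 to 0.089 without 1 library. The 18 interferon-stimulated genes that fell became 10 with no filter, 11 with only the compared groups and 4 to 23 without 1 library. Except where fewer genes or samples were tested, the cause was not tested.

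Over all genes the deviations of same-numbered *TRA2A* KO and Control KO libraries correlated by only -0.018, 0.027 and 0.061. A correlation over all genes cannot exclude a shift that same-numbered libraries share in some genes. *THBS1* and *CTGF* were highest in replicate 3 of both groups, so whether the replicate numbers pair the samples is not settled. With the replicate block 376 genes were DEGs, 350 of them among the 362, and 3114 had an adjusted p under 0.05. TPM values hold no depth, so counting error could not be separated from the spread between libraries, and 3 libraries a group limit the exact tests.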
